A study of Homo sapiens with 4 samples.

Results

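The 4 HOX gene clusters were examined in lists of replication initiation regions and of sites bound by RepID, a protein that binds replication origins. Regions were taken when they overlapped, on the hg19 build of the human genome, the HOXA window (chromosome 7, 27132001 to 27250000), the HOXB window (chromosome 17, 46606001 to 46806000), the HOXC window (chromosome 12, 54332001 to 54450000) or the HOXD window (chromosome 2, 176957001 to 177055000). Of 262748 regions in the 3 lists, 175 did so. They comprised 51 of the 78859 initiation regions of WT cells, 51 of the 159667 initiation regions of RepID KO cells and 73 of the 24222 RepID peaks. The windows span 118, 200, 118 and 98 kb.

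Initiation was measured by sequencing short nascent DNA strands, which mark sites where replication has begun, in asynchronous HCT116 cells, a colorectal carcinoma line. WT cells had unaltered RepID, and KO cells were stable HCT116 cells in which RepID had been targeted with CRISPR-Cas9. The sources used here do not say whether the KO cells were 1 clone. Binding was measured by chromatin immunoprecipitation with an antibody against FLAG in asynchronous U2OS cells, an osteosarcoma line, that expressed FLAG-tagged RepID, so the cells with measured binding were not those with measured initiation. Both nascent-strand lists were called by the authors against 1 genomic DNA control of HCT116 cells, which was not analysed here. Each condition had 1 library, which leaves no replicate error to test a difference with, so all values are given as descriptions. Depth is unknown, since read totals are not part of the lists. The whole KO list covered 557 Mb and the whole WT list 305 Mb, 1.83 times as much in KO. The share of this excess due to depth or to calling cannot be told apart from a difference between the cells.

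HOX genes encode homeodomain transcription factors that give cells their position along the body axis of the embryo. They lie in compact clusters in which the order of the genes on the chromosome follows the order of their expression along the body, from the anterior genes with low numbers to the posterior genes with high numbers, and genes with the same number in different clusters are paralogs. Replication origins are chosen from many possible sites in each cell, and RepID, also called PHIP, belongs to a family of substrate receptors of a ubiquitin ligase.

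The 38 listed genes were all found in the RefSeq annotation of GRCh38.p14. That annotation gives the order of the genes but not their place on hg19, so regions are given by cluster and position and were not assigned to genes. Along rising coordinates the HOXA cluster runs from the anterior gene HOXA2 to the posterior gene HOXA13, and HOXB runs from HOXB1 through HOXB9 to HOXB13. The other 2 clusters run the opposite way, from HOXC13 to HOXC4 and from HOXD13 to HOXD1. The widest spacing of neighbouring listed genes in HOXB was between HOXB9 and HOXB13. In HOXA it was between HOXA4 and HOXA5, in HOXC between HOXC12 and HOXC11, and in HOXD between HOXD8 and HOXD4.

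RefSeq promoters were matched for 20 of the 38 genes, 27 promoters in all because HOXA3 and HOXA10 have several starts. In the 250 bases before the start, the median GC content was 58.8%, with a range of 43.2 to 78.0%, against a median of 58.0% over all 35116 promoters. The median number of CG dinucleotides was 19, with a range of 0 to 40, against 11 over all promoters, and 21 of the 27 were at or above 11. A run of GGGG on either strand was in 27 of 27, against 87.1% of all promoters. The table held 16 promoters of HOXA, 8 of HOXD, 2 of HOXC and 1 of HOXB, too few to compare the clusters. The promoter with the most CG among those of each cluster is printed with each CG in capitals, to show the range of CG content among them. HOXA13, a posterior gene of limb and urogenital development, held 40 CG at 78.0% GC. HOXD1, an anterior gene, held 31 at 74.8%. HOXC4 held 14 at 50.8% on a start shared with HOXC5, and HOXB1, a gene of hindbrain patterning, held 7 at 57.2%. The HOXA13 sequence is chr7:27200092-27200341 on the minus strand, HOXB1 is chr17:48531012-48531261 on the minus strand, HOXC4 is chr12:54016638-54016887 on the plus strand and HOXD1 is chr2:176188418-176188667 on the plus strand. These are GRCh38.p14 positions, a different build from that of the lists.
HOXA13: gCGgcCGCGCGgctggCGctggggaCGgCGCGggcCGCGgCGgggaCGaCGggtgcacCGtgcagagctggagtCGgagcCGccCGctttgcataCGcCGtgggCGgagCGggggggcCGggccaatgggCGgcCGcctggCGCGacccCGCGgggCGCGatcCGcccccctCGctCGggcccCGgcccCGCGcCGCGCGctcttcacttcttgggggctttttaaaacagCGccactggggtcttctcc
HOXB1: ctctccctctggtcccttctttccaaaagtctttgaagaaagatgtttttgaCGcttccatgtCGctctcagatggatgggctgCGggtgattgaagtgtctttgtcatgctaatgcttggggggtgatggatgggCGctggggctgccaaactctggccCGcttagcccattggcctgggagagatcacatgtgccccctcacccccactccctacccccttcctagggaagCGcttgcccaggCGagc
HOXC4: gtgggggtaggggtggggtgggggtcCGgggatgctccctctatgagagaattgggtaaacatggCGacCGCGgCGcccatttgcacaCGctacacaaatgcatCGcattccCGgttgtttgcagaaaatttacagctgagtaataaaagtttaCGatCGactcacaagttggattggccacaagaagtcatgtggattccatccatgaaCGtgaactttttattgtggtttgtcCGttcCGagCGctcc
HOXD1: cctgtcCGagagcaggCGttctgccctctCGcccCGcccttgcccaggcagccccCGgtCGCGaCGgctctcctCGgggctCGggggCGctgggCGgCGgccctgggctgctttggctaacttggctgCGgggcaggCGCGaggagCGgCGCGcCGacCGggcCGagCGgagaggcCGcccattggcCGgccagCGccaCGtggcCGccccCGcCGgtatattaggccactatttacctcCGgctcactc

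All 4 windows were more densely covered by WT initiation regions and RepID peaks than their own flanks. WT regions covered 371 kb of the 534 kb of the windows, 69.5%. They covered 16.7% of the 1 Mb flanks on either side and 10.1% of the span of the whole WT list. The span of a list was measured on each chromosome from the start of its first region to the end of its last. RepID peaks covered 10.7% of the windows, against 0.852% of the flanks and 0.563% of the span of the RepID list. KO regions covered 43.2% of the windows, against 32.2% of the flanks and 18.5% of the span of the KO list. The windows stood out from their flanks 4.16-fold in WT regions, 12.6-fold in RepID peaks and 1.34-fold in KO regions.

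The WT share was 74.2% in HOXA, 61.3% in HOXB, 81.0% in HOXC and 66.5% in HOXD, so each cluster had most of its bases under WT regions. The flanks differed far more, with 6.02%, 32.3%, 26.6% and 1.83% in the same order. The contrast was therefore steepest at HOXD, 36.4-fold, and at HOXA, 12.3-fold. At HOXC it was 3.05-fold and at HOXB 1.90-fold. Each flank was cut into tiles of the length of its window. None of the 16, 10, 16 and 20 tiles around HOXA, HOXB, HOXC and HOXD reached the WT share of its window, and the highest tiles held 20.8%, 54.0%, 65.4% and 18.2%.

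RepID peaks were most frequent in HOXA, with 28 peaks or 237 per Mb, followed by HOXC with 21 or 178 per Mb, HOXD with 9 or 91.8 per Mb and HOXB with 15 or 75.0 per Mb. The flanks held 13.5 peaks per Mb and the whole list 8.10. Peaks covered 20.3% of HOXA, 14.1% of HOXC, 7.04% of HOXD and 4.90% of HOXB, and no flank tile reached the share of its window. The highest tiles held 2.01%, 5.13%, 1.51% and 2.91%.

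**Figure D1:**
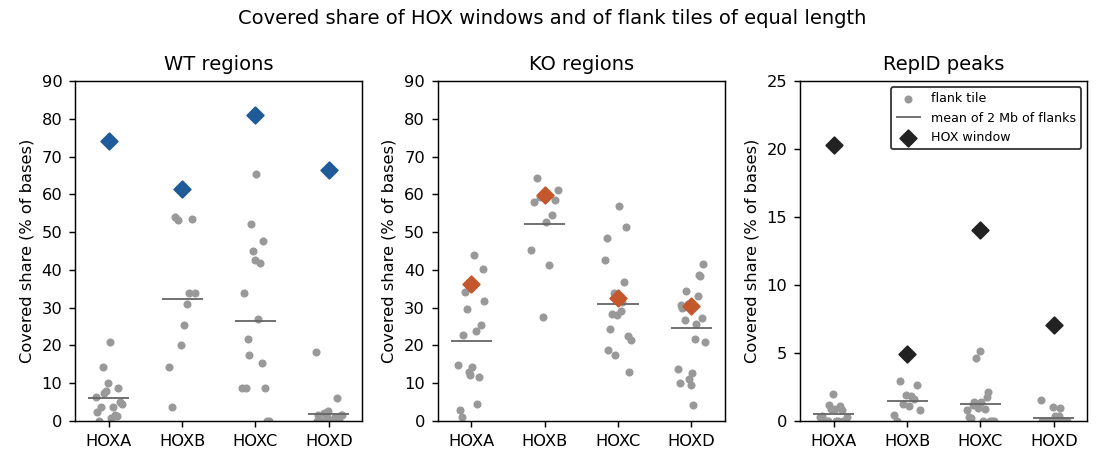
Covered share, in percent of bases, of each HOX window (diamond), of flank tiles of the same length (grey points) and of its 2 Mb of flanks together (line), for WT regions, KO regions and RepID peaks. In the WT and RepID panels every diamond lies above all of its tiles, while in the KO panel 2, 2, 6 and 7 tiles of HOXA, HOXB, HOXC and HOXD are at or above the diamond.

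Tiles of each window's length laid end to end over the chromosomes give the background. Only tiles with at least 1 region of any of the 3 lists were counted. At least as many RepID peaks as in HOXA were in 3 of 23274 tiles (0.0129%), as in HOXC in 15 of 23274 (0.0644%), as in HOXD in 269 of 27793 (0.968%) and as in HOXB in 147 of 13938 (1.05%). A WT share at least as large was in 0.877% of tiles for HOXC, 1.56% for HOXA, 2.94% for HOXB and 3% for HOXD. The clusters thus lay in the upper tail of the genome for both lists. For KO regions the background was 13.1% of tiles for HOXA, 17.9% for HOXC and 21.7% for HOXD, against 1.71% for HOXB.

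In KO cells HOXB had the highest coverage, close to its WT share, and the other 3 clusters were below theirs. KO regions covered 36.3% of HOXA, 32.5% of HOXC and 30.4% of HOXD, which was 0.489, 0.402 and 0.457 of the WT share. In HOXB they covered 59.9%, 0.977 of the WT share. The flanks of HOXB also had the highest KO share of the flanks, 52.2%. The values of HOXC and HOXD depended on the length of the KO list, and were 15.9% and 7.96% with only its 78859 highest-scoring regions, where HOXA had 33.9% and HOXB 57.9%. With the full KO list the flanks went the other way, with a KO share above the WT share in all clusters. The ratio was 3.50-fold at HOXA, 1.62-fold at HOXB, 1.17-fold at HOXC and 13.5-fold at HOXD. Over HOXA, HOXC and HOXD together the KO share was 33.2% and the WT share 74.4%, while in their flanks the KO share was 25.6% and the WT share 11.5%. KO exceeded WT in 15 of 16 flank tiles at HOXA, 10 of 10 at HOXB, 11 of 16 at HOXC and 19 of 20 at HOXD. With the shorter KO list the flanks of HOXC had a KO share of 24.8%, below their WT share of 26.6%. The flanks of HOXA, HOXB and HOXD stayed above theirs.

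Per base, 34.2% of the windows lay under both WT and KO regions, 35.3% under WT regions only, 9.06% under KO regions only and 21.5% under neither. In the flanks the shares under both, WT only and KO only were 10.4%, 6.31% and 21.9%. Of the WT bases, KO regions covered 33.8% in HOXA, 78.1% in HOXB, 38.5% in HOXC and 31.0% in HOXD. In the flanks of the same clusters these shares were 44.5%, 76.5%, 51.1% and 29.0%, so HOXA and HOXC were below their own flanks and HOXB and HOXD slightly above theirs.

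**Figure D2:**
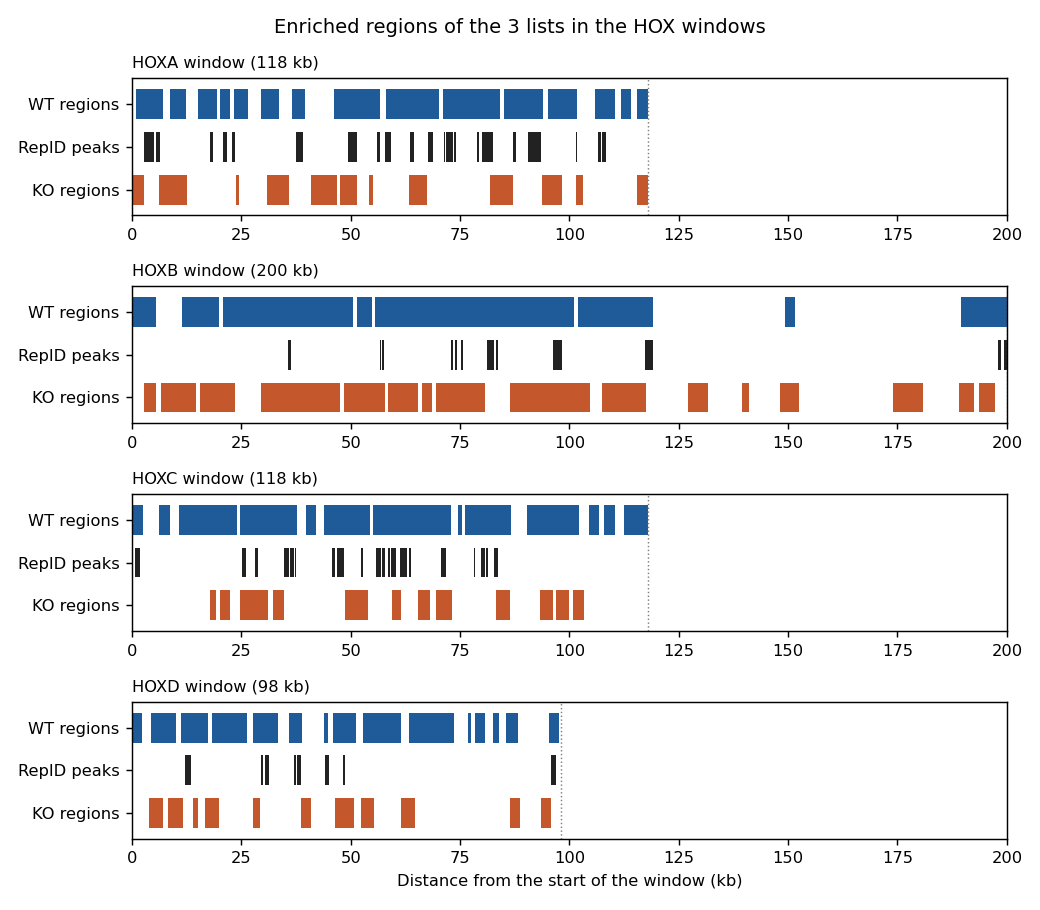
WT regions, RepID peaks and KO regions along each window, in kb from its start, with a dotted line at the end of windows shorter than the axis. WT regions fill 61.3 to 81.0% of each window, and KO regions fill 59.9% of HOXB and 30.4 to 36.3% of the other windows.

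WT regions of the clusters were wide and high in score. The score is a whole number whose meaning is not stated in the sources used here, so it was compared only within a list. The median width was 5600 bp in the windows, 2600 bp in the flanks and 2400 bp in the whole list, and the median scores were 602, 167.5 and 122. A region of the median window score lay at percentile 86.8 of the WT list. Per kb of region, the median score was 105 in the windows, 65.8 in the flanks and 58.0 in the list, so the scores were higher for their width too. Pooled over the windows, KO regions were closer to their own list, their median width being 3400 bp where that of the list was 3000 bp, their median score 165 where that of the list was 130, and the median score per kb 46.5 in both. The clusters differed, since the median KO width and score were 6800 bp and 324.5 in HOXB, 4700 bp and 185 in HOXA, 2800 bp and 120 in HOXC and 3000 bp and 119 in HOXD. HOXB and HOXA were thus above the medians of the list, and HOXC and HOXD were at or below them. The median RepID peak was 692 bp wide in the windows and 559 bp in the list, and the median MACS scores were 267 and 198.

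HOXA held 15 WT regions of 2200 to 13200 bp. The highest score, 1996, belonged to the widest, from 27203001 to 27216200, which held 5 RepID peaks and had 18.2% of its bases under a KO region. Next came the regions from 27190001 to 27202200 (score 1393, 32.8% under KO) and from 27227001 to 27233800 (score 1117, 50% under KO). All 3 were thus covered by KO regions over 50% of their length or less. The strongest RepID peak of the 4 clusters, from 27211930 to 27214630, was 2701 bp wide with a MACS score of 2207.77, at percentile 99.7 of the RepID list. The next 2 of HOXA, from 27135711 to 27137051 (score 1122.29) and from 27203822 to 27205330 (score 962.77), lay 910 and 4421 bp from the nearest KO region, while a KO region overlapped the strongest.

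In HOXA, 5 WT regions were without a KO region. They ran from 27147201 to 27151400 (score 410), from 27152201 to 27154400 (score 333), from 27168601 to 27171600 (score 389), from 27237801 to 27242400 (score 970) and from 27243801 to 27246000 (score 145). The first 4 held RepID peaks. The KO regions with the highest scores ran from 27138201 to 27144600 (score 292), from 27128201 to 27134800 (score 279, the widest at 6600 bp) and from 27173001 to 27178800 (score 275). The longest stretch with no KO region, 14.4 kb from 27199401, reached into the highest-scoring WT region. The longest stretch without a WT region was 6.6 kb and without a RepID peak 13.8 kb, so no long part of the cluster was empty. In 4 consecutive parts of 29.5 kb, WT coverage was 65.8%, 63.1%, 94.6% and 73.6%, and RepID coverage 17.7%, 18.1%, 29.0% and 16.5%, both highest from 59 to 88.5 kb of the window.

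HOXB was the largest window and the least even. WT coverage of its 4 consecutive parts of 50 kb was 86.8%, 96.8%, 37.6% and 24.0%, and KO coverage 76.8%, 84.0%, 45.6% and 33.2%, so both were higher in the first 100 kb and KO was above WT in the last 100 kb. The part from 50 to 100 kb held 10 of the 15 RepID peaks. The WT region from 46661601 to 46707000 was 45400 bp wide, the widest of the 4 clusters, with a score of 5941, 10 RepID peaks and 82.4% of its bases under KO regions. The next WT regions ran from 46626801 to 46656600 (score 4545, 77.2% under KO) and from 46708001 to 46725200 (score 1943, 74.4% under KO). A KO region overlapped all 8 WT regions of the cluster.

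The KO regions of HOXB with the highest scores ran from 46635601 to 46653600 (score 1153), from 46692401 to 46710800 (score 1042, the widest at 18400 bp) and from 46713401 to 46723400 (score 627). All 3 overlapped the WT regions just named. KO regions from 46733201 to 46737800, from 46745401 to 46747000 and from 46780001 to 46786800 lay 8000, 8400 and 8800 bp from a WT region. They were the only KO regions of the 4 windows more than 2 kb from one. The strongest RepID peaks ran from 46702149 to 46703759 (score 981.43, the widest at 1611 bp, under a KO region), from 46687150 to 46688369 (score 745.02, 349 bp from one) and from 46805246 to 46806179 (score 587.34, 21 bp from one). No RepID peak lay in the 79.0 kb from 46725040 to 46804056, and no WT region in 38 kb of it from 46757601. The longest stretch without a KO region was 21.4 kb.

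HOXC had the highest WT share and the lowest KO share relative to it. The WT region from 54387201 to 54405000 was 17800 bp wide with a score of 3043, held 8 RepID peaks and had 48.3% of its bases under KO regions. The next ran from 54342801 to 54356000 (score 1885, 27.3% under KO) and from 54356801 to 54369800 (score 1441, 67.7% under KO). WT coverage was even, between 76.6 and 85.4% in each of 4 parts of 29.5 kb. The first 3 parts held 3, 9 and 9 RepID peaks, and the last 34.3 kb of the window none.

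The strongest peaks of HOXC ran from 54393321 to 54394976 (score 1387.38, under a KO region in part), from 54378864 to 54380569 (score 1294.43, the widest at 1706 bp, 31 bp from one) and from 54332686 to 54333873 (score 887.76, 2485 bp from one). The highest KO scores were 347 from 54356601 to 54363000, 237 from 54380601 to 54386000 and 165 from 54415201 to 54418400. The first 17.8 kb of the window held no KO region. All 6 RepID-bound WT regions were kept, and of the 7 not bound 1 was. Of the bound regions, the one from 54325601 to 54334600 was overlapped by a KO region only before the start of the window. The one from 54342801 to 54356000 held no peak, and the nearest was 1200 bp away. The 6 WT regions without a KO region were narrow, with a median of 2500 bp against 12000 bp for the kept ones.

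HOXD had the fewest RepID peaks, and its flanks had the lowest WT and RepID coverage, with 15 WT regions in the 98 kb window and 15 in 2 Mb of flanks. The highest WT scores were 1001 from 176968201 to 176974400 (32.3% under KO), 905 from 177020401 to 177030600, the widest at 10200 bp (11.8% under KO), and 851 from 176984601 to 176990400 (27.6% under KO). None of these had its larger part under KO regions. The WT regions without a KO region ran from 176955801 to 176959400, from 177000801 to 177001800, from 177033801 to 177034600, from 177035401 to 177037600 and from 177039601 to 177041000. Of these, the one from 177000801 was bound.

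The 9 RepID peaks of HOXD formed 6 groups. A pair at 176969142 to 176970106 (score 635.29) and 176970125 to 176970568 (score 128.77) lay in the highest-scoring WT region. Another pair at 176986422 to 176987016 (score 195.79) and 176987339 to 176988410 (score 459.54) was followed by 176993998 to 176994434 (score 209.13) and 176994695 to 176995681 (score 379.28). Single peaks lay at 177001176 to 177001976 (score 557.17), 177005286 to 177005808 (score 227.63) and 177052893 to 177053971 (score 640.16, the highest and the widest at 1079 bp). KO regions overlapped those with scores 379.28 and 227.63. A stretch of 47.1 kb before the last peak held none. The highest KO scores were 172 from 177003401 to 177007800, the widest at 4400 bp, 148 from 176965201 to 176968600 and 129 at both 176973801 to 176977000 and 177043401 to 177045600. Between 177021601 and 177043400 there was no KO region, a stretch of 21.8 kb. WT regions were absent for at most 7.2 kb.

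Every one of the 73 RepID peaks overlapped a WT region, with an exact binomial 95% confidence interval from 95.1%. The share was 93.5% in the flanks (101 of 108) and 87.7% over the whole list. WT regions covered 69.5% of the windows, 16.7% of the flanks and 10.1% of the span of the WT list. The part of this coverage in the overlap was not tested. The intervals here and below cover counting error only, and neighbouring regions are not independent. KO regions overlapped 26 of the 73 peaks, 35.6% (24.7 to 47.7%), against 41.7% in the flanks and 27.9% over the list. By cluster the counts were 7 of 28 in HOXA, 9 of 15 in HOXB, 8 of 21 in HOXC and 2 of 9 in HOXD. In the flanks of the same clusters they were 3 of 15, 29 of 44, 12 of 41 and 1 of 8. The order of the clusters, with HOXB highest, then HOXC, HOXA and HOXD, was the same as in the windows. Only HOXB was below its own flanks, at 60% against 65.9%. The window was above its flanks in HOXA, at 25% against 20%, in HOXC, at 38.1% against 29.3%, and in HOXD, at 22.2% against 12.5%. Peaks were thus under both lists or under WT regions only, and more often the latter in all clusters but HOXB, where 6 of 15 were. The intervals of the clusters were wide, 10.7 to 44.9% in HOXA and 32.3 to 83.7% in HOXB.

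**Figure D3:**
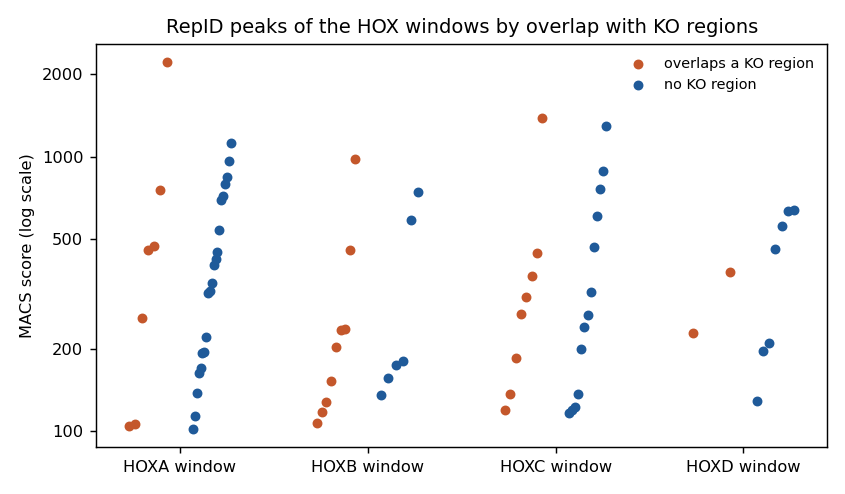
MACS score (log scale) of each of the 73 RepID peaks, by window and by whether a KO region overlapped the peak. Both groups span a wide range of scores in HOXA, HOXB and HOXC. Over the 4 windows the medians were 246 for overlapped peaks and 321 for the others, an order found only in HOXD. The medians were 458 and 346 in HOXA, 202 and 178 in HOXB, 287 and 265 in HOXC and 303 and 460 in HOXD.

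The 47 peaks without a KO region were close to one. Their median distance to the nearest KO region was 1571 bp and the longest 6193 bp, against medians of 2811 bp in the flanks and 3956 bp over the list. Within 500 bp lay 12 of the 47, 25.5%, against 15.9% in the flanks and 12.6% over the list. Peaks within 2 kb of a KO region, overlapping ones included, were 56 of 73, 76.7%, against 67.6% in the flanks and 51.8% over the list. KO regions covered 43.2% of the windows, 32.2% of the flanks and 18.5% of the span of the KO list. The part of this coverage in the distances was not tested.

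Within WT regions, the bases under RepID peaks were less often under KO regions than the bases outside peaks. The shares were 16.4% against 40.1% in HOXA, 48.5% against 80.7% in HOXB, 27.8% against 40.7% in HOXC and 9.0% against 33.5% in HOXD. Over the 4 windows they were 24.4% against 53.6%. The direction was the same in each cluster. It was not particular to them, since the shares were 34.4% against 63.6% in the flanks and 20.6% against 42.6% over the whole lists.

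RepID peaks were often side by side. Peaks less than 1 kb apart were joined into groups. The 28 peaks of HOXA formed 16 groups, the 15 of HOXB 8, the 21 of HOXC 11 and the 9 of HOXD 6. Over the whole list, 24222 peaks formed 17469 groups. The widest group of the windows, in HOXC, spanned 7938 bp, and the widest of the list 21230 bp. The median gap between neighbouring peaks was 1313 bp, 823 bp, 1072 bp and 4402 bp, against 21629 bp over the whole list. Scores at or above the median of the list were found for 19 of 28, 7 of 15, 14 of 21 and 7 of 9 peaks, and 8, 2, 5 and 2 were among the 2423 highest of the list. HOXB, with the lowest density of peaks, had its median score of 181 below that of the list.

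A WT region was counted as RepID-bound with a peak at most 2 kb away. This held for 28 of 51 WT regions of the windows, 54.9% (40.3 to 68.9%), against 24.1% in the flanks and 18.7% over the list. The counts were 11 of 15 in HOXA, 5 of 8 in HOXB, 6 of 13 in HOXC and 6 of 15 in HOXD. Bound regions had a median width of 7900 bp and the 23 others 3600 bp. The part of width in the bound share was not tested.

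A WT region was counted as kept with at least 1 bp of overlap by a KO region. In the windows 35 of 51 were kept, 68.6% (54.1 to 80.9%), against 75.9% in the flanks and 60.6% over the list. The pooled share thus lay between these. The counts were 10 of 15 in HOXA, 8 of 8 in HOXB, 7 of 13 in HOXC and 10 of 15 in HOXD. In their own flanks they were 30 of 50, 114 of 137, 91 of 118 and 8 of 15. HOXC was below its own flanks, at 53.8% against 77.1%, while HOXA, HOXB and HOXD were above theirs. The overlap was often partial. A KO region lay over the centre of 16 of 51, 31.4% (19.1 to 45.9%), against 61.3% in the flanks and 44.9% over the list. These 16 comprised 4 of 15 in HOXA, 7 of 8 in HOXB, 2 of 13 in HOXC and 3 of 15 in HOXD. In their own flanks the counts were 22 of 50, 100 of 137, 69 of 118 and 5 of 15. The share was thus lower in the window than in its flanks for HOXA, HOXC and HOXD, with HOXC furthest from its flanks, and higher for HOXB. Without HOXB, 9 of 43 centres were under KO regions.

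**Figure D4:**
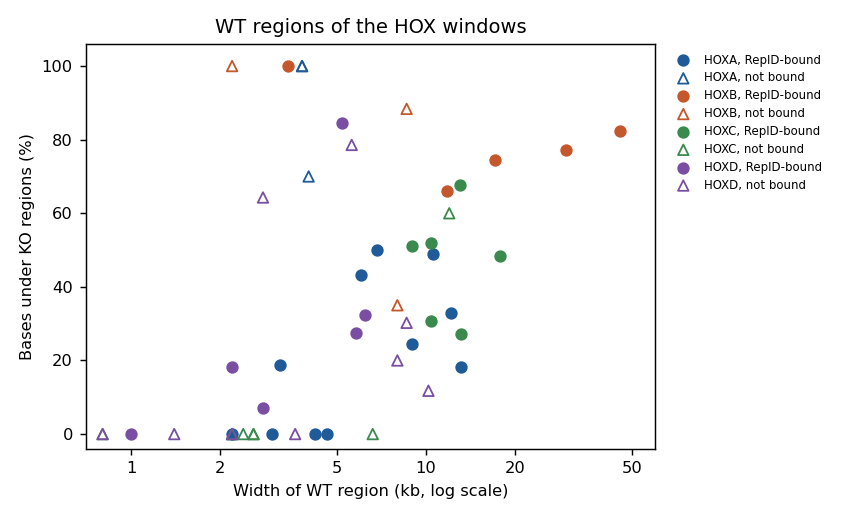
Share of each WT region's bases under KO regions, in percent, against its width in kb (log scale), for the 51 WT regions of the windows, with filled circles for RepID-bound regions and open triangles for the others. The regions at 0% are 6600 bp wide or narrower, and 7 of the 8 HOXB regions lie above 50%.

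Bound WT regions were kept in 23 of 28 cases, 82.1% (63.1 to 93.9%), and the others in 12 of 23, 52.2% (30.6 to 73.2%). In the flanks the order was the opposite, with 66.2% of bound and 79.0% of other regions kept, and over the whole list 56.0% and 61.7%. The clusters were not alike in this. Bound and other regions were kept in 7 of 11 and 3 of 4 cases in HOXA, in 5 of 5 and 3 of 3 in HOXB, in 6 of 6 and 1 of 7 in HOXC and in 5 of 6 and 5 of 9 in HOXD. Without HOXC the counts were 17 of 22, 77.3% (54.6 to 92.2%), and 11 of 16, 68.8% (41.3 to 89.0%), so most of the pooled difference came from that cluster. Whether the windows differ from the flanks was not tested. Width moved with it. All 7 bound regions of 5 to 10 kb and all 12 of 10 kb or more were kept, against 69.0% and 82.7% of bound regions of these widths over the list. Of the 8 bound regions of 2 to 5 kb 4 were kept, against 51.8%, and 1 region narrower than 2 kb was not. By bases, 52.8% of the bound and 39.8% of the other WT regions lay under KO regions. These shares were 57.7% and 65.5% in the flanks and 32.4% and 45.6% over the list. Wide regions weigh most in them, and the widest bound region, of 45400 bp in HOXB, had 82.4% under KO regions. HOXA went the other way. No bound region there was above 50% under KO regions, while the others were at 0, 70, 100 and 100%. The part of single clusters in the pooled shares was not tested.

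Few KO regions of the clusters were away from WT regions. Only 3 of 51, 5.88% (1.23 to 16.2%), lay more than 2 kb from one, against 52.0% in the flanks and 63.3% over the list. All 3 were in HOXB. WT regions covered 69.5% of the windows and 16.7% of the flanks, and the part of this in the share was not tested. KO regions overlapped a RepID peak in 17 of 51 cases, 33.3%, against 5.85% in the flanks and 3.45% over the list. RepID peaks covered 10.7% of the windows and 0.852% of the flanks, and the part of this in the overlap was not tested.

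The KO list has more regions than the WT list, and its shortening to 78859 regions, the length of the WT list, was a comparison chosen after the values were seen. HOXC and HOXD then had a lower KO share than their own flanks, 0.643-fold and 0.471-fold in place of 1.05-fold and 1.23-fold, while HOXA was 2.57-fold and HOXB 1.20-fold above. KO regions of this shorter list overlapped 21 of the 73 RepID peaks. The high KO coverage of HOXB held with both lists, but was shared by its flanks. These had 52.2% with the full list and 48.1% with the shorter one. With the full list HOXB was 1.15-fold above its flanks, where HOXA was 1.72-fold above its own.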

How the data were processed

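Nascent strands of HCT116 WT and RepID KO cells and FLAG-RepID chromatin of U2OS cells were sequenced by the authors, with 1 library each, and the authors deposited 1 list of enriched regions per library. The submitters' processing notes name MACS, SICER and hg19. The deposited score of a RepID peak is its MACS score against genomic input of U2OS cells. The deposited score of a nascent-strand region is a whole number of unstated meaning, and the programme used for HCT116 cells is not given in the sources used here. All nascent-strand bounds lie on a 200 bp grid. Depth is unknown, so the absence of a region from a list may reflect few reads.

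Covered bases, gaps and overlaps were computed with Python 3.11.15, numpy 2.4.6 and pandas 2.3.3, and tested on simulated data against bedtools 2.31.1. Covered shares count only bases inside a window or flank, while counts, widths and scores use whole regions that overlap it. Exact binomial (Clopper-Pearson) 95% intervals came from SciPy 1.17.1 and figures from matplotlib 3.10.9. Positions are counted from 1. Genome tiles were counted from the start of each chromosome to its last region in any list, and tiles without a region of any list were left out. Percentiles are positions in the region's own list. Named regions were, per window, the 3 highest-scoring and the widest of each list, all RepID peaks where there were at most 10, WT regions without a KO region where there were at most 5, and the longest empty stretches. The KO regions of HOXB away from WT regions were named after their values were seen. Windows, members and these rules were chosen with earlier results of these data known. An hg19 genome and annotation were not used here, so the overlap of regions with single genes and the base composition of RepID peaks were not analysed. Promoter sequences are those of RefSeq on GRCh38.p14 and describe the genes, not the peaks. Alternatives covered the window and flank lengths, score thresholds, merging of regions, the distances that count as bound or away, the overlap that counts as kept, and a shorter KO list.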

Additional observations from a re-analysis of the deposited data

How the results depend on the processing

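Of 42 pooled values recomputed under an alternative setting, several from the same setting, 38 stayed within 1.5 times or within their 95% counting interval. A reversal was defined only for the window-to-flank ratios, and 0 of the pooled ratios reversed. The comparison of bound, kept and away shares with the flanks was not recomputed. Single clusters did reverse with the shorter KO list, where the window-to-flank ratio of KO coverage was 0.643 in HOXC and 0.471 in HOXD, against 1.05 and 1.23 with the full list. The RepID-bound share of WT regions in the windows was 74.5% when a peak counted up to 5 kb away. The kept share was 35.3% when 50% of a WT region had to be covered, 82.4% when a KO region counted up to 2 kb away and 49.0% with the KO list cut to the length of the WT list. By construction each of these makes the criterion looser or stricter. The 2 alternatives for KO coverage with the shorter list were chosen after seeing the data, and gave a pooled share of 34.2% and a window-to-flank ratio of 1.33. No paired analysis was possible because each condition has 1 library and no result comes from a test. Unknown depth, different cell lines for binding and initiation, and 1 library per condition limit all comparisons.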
